A study of Mus musculus with 4 samples.

Results

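The 8 genes described here encode the subunits of hypoxia-inducible factor (HIF) and the proteins through which oxygen controls it. They are Hif1a and Epas1, which encode the oxygen-labile alpha subunits HIF-1alpha and HIF-2alpha; Arnt, which encodes their constitutive partner HIF-1beta; Egln1, Egln2 and Egln3, which encode the HIF prolyl hydroxylases; Hif1an, which encodes the asparaginyl hydroxylase FIH; and Vhl, which encodes the von Hippel-Lindau substrate receptor. They were chosen by name, and all 8 were found among the 55401 genes of the deposited read count table. RNA came from R1 mouse embryonic stem cells in 2 groups, Usp28 KO cells and control cells with a wild-type Usp28 genotype, with 2 libraries each. Cells of both groups grew on gelatin at 0.2% in N2B27 with the MEK inhibitor PD0325901 (1 μM), the GSK3 inhibitor CHIR99021 (3 μM) and leukaemia inhibitory factor (10 ng/ml), or 2i/LIF medium. The labels do not say how the knockout was made, whether it is a single clone, at what oxygen level the cells grew, or whether replicates are separate cultures. A p-value here therefore speaks for the scatter of these 4 libraries alone, and that scatter could be purely technical.

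In the presence of oxygen the EGLN enzymes hydroxylate prolines of the HIF alpha subunits, VHL binds the hydroxylated protein, and its ubiquitin ligase marks it for degradation. FIH hydroxylates an asparagine of the same subunits and so keeps them from binding the coactivators p300 and CBP. When oxygen is low the alpha subunits accumulate, pair with ARNT and bind DNA at ACGTG or GCGTG, and Egln1 and Egln3 are themselves among the genes that HIF induces. USP28 is a deubiquitinase that opposes the ubiquitin ligase FBXW7, and HIF-1alpha is among the proteins it has been reported to act on in human cells. The table holds RNA, so neither the amount of HIF protein nor its hydroxylation was measured.

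Library totals lay between 16595196 and 19533608 counts, and between 22304 and 22810 genes had a read. Usp28 itself had 3392 and 3319 counts in the Usp28 KO-labelled libraries, against 3690 and 3120 in the control libraries. Its log2 fold change was -0.11 ± 0.15 (edgeR, adjusted p = 0.857), so this count gives no check of the knockout label, and each direction below is between libraries as labelled. All 10 embryonic stem cell markers averaged at least 1 TPM (transcripts per 1000000, corrected for exon length), with a summed level of 10486 and 9279.6 TPM in the Usp28 KO-labelled libraries, against 8900.02 and 8514 TPM in the control libraries. Of 6 markers per type, 1 fibroblast, 1 endoderm, 3 mesoderm, 4 neural and 1 trophoblast marker averaged at least 1 TPM, and Postn, Afp, Neurog2 and Dcx had no read. Libraries differed in how a gene's log2 CPM, relative to its mean in the other 3 libraries, followed its exon GC content, with a rank correlation across genes of 0.0155 and 0.455 in Usp28 KO-labelled replicates 1 and 2, and of 0.0577 and -0.460 in control replicates 1 and 2.

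The Egln1 and Egln3 transcripts were higher and the Hif1a transcript was lower in the Usp28 KO-labelled libraries, at log2 fold changes of 0.53, 0.64 and -0.50, while the other members differed by less. None of the 8 passed the test at an adjusted p under 0.05 by edgeR, where 0% of the 15341 tested genes were called, and none passed by DESeq2, where 1.08% were. At an unadjusted p under 0.05, Egln1 and Egln3 were higher, in a background of 6.86% of genes, and Hif1a was lower, in a background of 4.34%. The CPM of the groups did not overlap for 5 of the 8 genes, which held for 41.8% of all tested genes. CPM here are counts per 1000000 counts of the tested genes, with library sizes scaled by TMM factors. With 2 libraries against 2, a test of a single gene by exact permutation cannot give a two-sided p under 0.333, so the tests below borrow their estimate of spread from all genes.

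**Figure D1:**
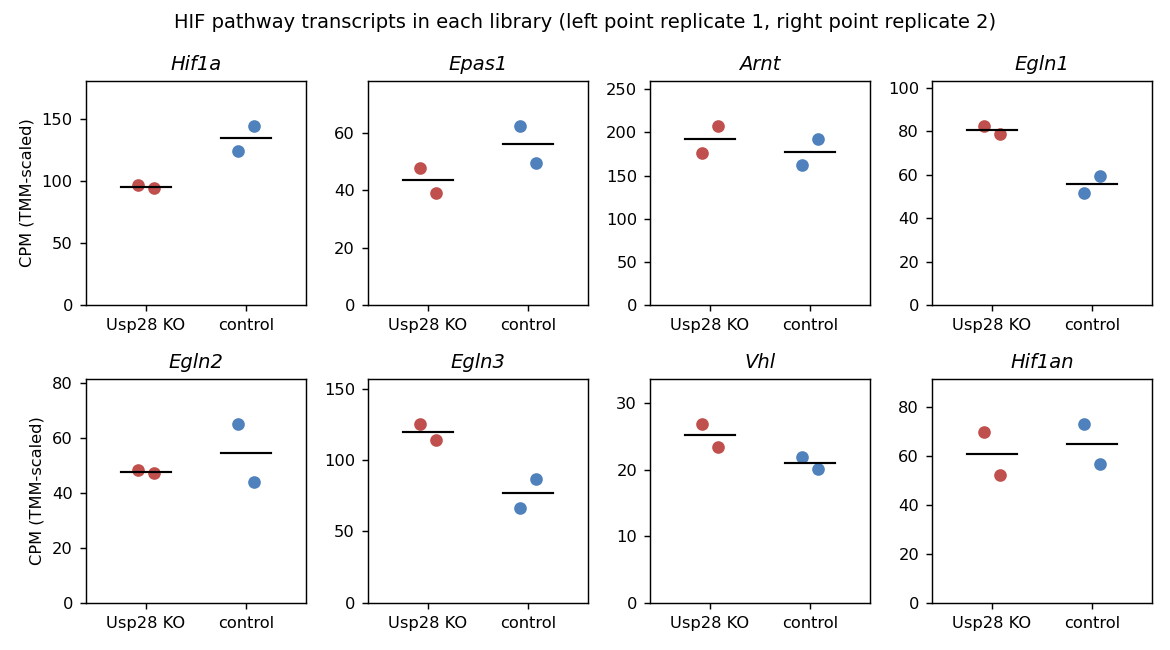
CPM (scaled by TMM factors) of the 8 genes in each library, with Usp28 KO-labelled libraries on the left and control libraries on the right of each panel; points are replicates 1 and 2 from left to right and bars are group means. The Usp28 KO-labelled points lie above both control points for Egln1, Egln3 and Vhl, below both for Hif1a and Epas1, and overlap them for Arnt, Egln2 and Hif1an.

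Hif1a (ENSMUSG00000021109.13, plus strand of chromosome 12, 73901375 to 73947530, mm10) had 96.4 and 93.9 CPM in the Usp28 KO-labelled libraries, against 124 and 144 CPM in the control libraries. Both Usp28 KO-labelled libraries lay below both control libraries and differed little from each other. The means were 95.1 ± 1.71 CPM in the Usp28 KO-labelled group and 134 ± 14.1 CPM in the control group (SD, n = 2 each), a log2 fold change of -0.50 ± 0.16 (SE) with a 95% interval of -0.84 to -0.15 (edgeR, unadjusted p = 0.00840, adjusted p = 0.269). Hif1a had the lowest transcript GC content of the 8 genes, 41.0%, and after a correction for the GC trend its log2 fold change was -0.32 ± 0.12 (edgeR, adjusted p = 0.427). Its exons share 330 of 5896 bases with those of the antisense gene Gm15283, which had 77 and 72 counts in the Usp28 KO-labelled libraries, against 43 and 63 in the control libraries. The counting strand is not given in the sources used here, so reads from that stretch cannot be told apart, although Hif1a itself had between 1761 and 2431 counts. Being bulk RNA, the data also cannot tell fewer cells with the transcript from less transcript per cell.

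Epas1 (ENSMUSG00000024140.10, plus strand of chromosome 17, 86753700 to 86833410) was less abundant than Hif1a. It had 47.7 and 39.2 CPM in the Usp28 KO-labelled libraries, against 62.4 and 49.5 CPM in the control libraries. The groups did not overlap but lay close, and per exon length they overlapped, at 29.5 and 23.9 TPM in the Usp28 KO-labelled libraries and 37.7 and 28.3 TPM in the control libraries. The log2 fold change was -0.37 ± 0.19, with a 95% interval of -0.77 to 0.040 (edgeR, adjusted p = 0.503). Leaving out control replicate 1 gave -0.19, and leaving out control replicate 2 gave -0.53. Per exon length Hif1a made up 65.7% and 69.4% of the sum of Hif1a and Epas1 in the Usp28 KO-labelled libraries, against 65.4% and 73.4% in the control libraries. These shares overlapped, so the balance of Hif1a and Epas1 did not separate the groups.

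Arnt (ENSMUSG00000015522.18, plus strand of chromosome 3, 95434388 to 95497240) had the most reads of the 8 genes. It stood at 177 and 208 CPM in the Usp28 KO-labelled libraries, against 162 and 192 CPM in the control libraries. The groups overlapped, and replicate 2 was the higher library in both. The log2 fold change was 0.12 ± 0.17, with a 95% interval of -0.24 to 0.48 (edgeR, adjusted p = 0.852), and its sign turned when either Usp28 KO-labelled replicate 2 (-0.0078) or control replicate 1 (-0.0024) was left out. Relative to Arnt in the same library and per exon length, Hif1a was at 0.741 and 0.615 in the Usp28 KO-labelled libraries, against 1.04 and 1.02 in the control libraries. The alpha subunit transcript was thus below its partner's in both Usp28 KO-labelled libraries and just above it in both control libraries. By the longest transcript the same ratio was 0.500 and 0.414 in the Usp28 KO-labelled libraries, against 0.704 and 0.688 in the control libraries, below 1 in all 4.

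**Figure D2:**
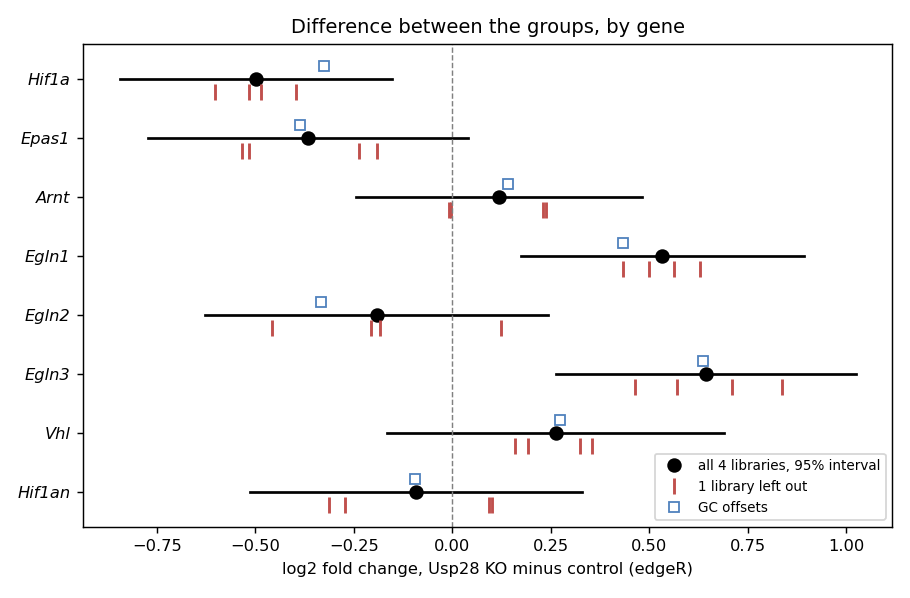
Log2 fold change (Usp28 KO minus control, edgeR) of each gene with its 95% interval from all 4 libraries (black), with each of the 4 libraries left out in turn (red ticks) and after GC offsets (blue squares). The intervals of Hif1a, Egln1 and Egln3 lie to 1 side of 0, and those of the other 5 genes cross it.

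Among the prolyl hydroxylase genes, Egln3 (ENSMUSG00000035105.5, minus strand of chromosome 12, 54178981 to 54203860) differed most. It had 126 and 114 CPM in the Usp28 KO-labelled libraries, against 66.6 and 86.6 CPM in the control libraries. Both Usp28 KO-labelled libraries lay above both control libraries. The means were 119.7 ± 8.33 CPM in the Usp28 KO-labelled group and 76.6 ± 14.2 CPM in the control group (SD, n = 2 each), a log2 fold change of 0.64 ± 0.18 with a 95% interval of 0.26 to 1.02 (edgeR, unadjusted p = 0.00295, adjusted p = 0.182; DESeq2, adjusted p = 0.104). With a library left out, it was 0.57 without Usp28 KO-labelled replicate 1 and 0.71 without Usp28 KO-labelled replicate 2. It was 0.46 without control replicate 1 and 0.84 without control replicate 2. GC offsets left it at 0.64 ± 0.17 (edgeR, adjusted p = 0.343).

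Egln1 (ENSMUSG00000031987.6, minus strand of chromosome 8, 124908587 to 124949324) encodes PHD2, the main regulator of HIF-1alpha under normal oxygen. It had 82.5 and 78.8 CPM in the Usp28 KO-labelled libraries, against 51.8 and 59.7 CPM in the control libraries. The groups did not overlap, and the gap between them was wider than the distance between replicates in either group. The log2 fold change was 0.53 ± 0.17, with a 95% interval of 0.17 to 0.89 (edgeR, unadjusted p = 0.00690, adjusted p = 0.248). It was 0.43 ± 0.15 after GC offsets (edgeR, adjusted p = 0.426).

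Egln2 (ENSMUSG00000058709.11, minus strand of chromosome 7, 27158658 to 27166802), which encodes PHD1, did not share that direction. It had 48.1 and 47.3 CPM in the Usp28 KO-labelled libraries, against 65.1 and 43.8 CPM in the control libraries. Both Usp28 KO-labelled values lay between the control values. The log2 fold change was -0.19 ± 0.20, with a 95% interval of -0.63 to 0.24 (edgeR, adjusted p = 0.780). It was 0.12 when control replicate 1 was left out and -0.46 when control replicate 2 was, and -0.33 ± 0.18 after GC offsets, Egln2 having the highest GC content of the 8 genes at 61.0%. It shares 11 exon bases with the antisense neighbour Cyp2t4, which had at most 16 counts in a library.

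The stretch of 250 bases before a RefSeq transcription start is shown for Egln3, Egln1, Egln2 and Hif1a. They were picked because ACGTG lies in them and because 3 of these genes had the smallest p of the 8. Sequences are from RefSeq on GRCm38.p6, the build of mm10, and run 5′ to 3′ on the strand of the gene. The windows are chr12:54203875-54204124 (minus strand) for Egln3, chr8:124949255-124949504 (minus strand) for Egln1, chr7:27166803-27167052 (minus strand) for Egln2, which has a second window not shown, and chr12:73907617-73907866 (plus strand) for Hif1a. The Hif1a window lies inside the annotated span of the gene, since the RefSeq start it precedes is downstream of the outermost annotated start. For the same reason the part of the Egln1 window up to position 124949324 lies inside the annotated span of Egln1, and its ACGTG falls in that part. Capitals mark ACGTG on either strand, and GCGTG is not marked.
Egln3: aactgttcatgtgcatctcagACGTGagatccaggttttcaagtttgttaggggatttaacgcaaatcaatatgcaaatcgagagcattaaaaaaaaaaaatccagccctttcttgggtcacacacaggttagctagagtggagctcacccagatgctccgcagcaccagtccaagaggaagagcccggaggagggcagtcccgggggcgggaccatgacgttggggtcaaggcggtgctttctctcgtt
Egln1: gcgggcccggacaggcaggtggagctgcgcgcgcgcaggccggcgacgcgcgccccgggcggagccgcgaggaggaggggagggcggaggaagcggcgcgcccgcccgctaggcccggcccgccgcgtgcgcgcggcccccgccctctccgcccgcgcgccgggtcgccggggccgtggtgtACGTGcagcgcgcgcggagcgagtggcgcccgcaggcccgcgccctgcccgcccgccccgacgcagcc
Egln2: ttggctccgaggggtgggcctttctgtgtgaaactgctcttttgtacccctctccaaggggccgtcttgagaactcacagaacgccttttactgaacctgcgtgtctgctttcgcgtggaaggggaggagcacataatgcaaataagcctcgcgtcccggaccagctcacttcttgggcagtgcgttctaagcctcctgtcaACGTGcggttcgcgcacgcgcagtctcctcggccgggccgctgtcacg
Hif1a: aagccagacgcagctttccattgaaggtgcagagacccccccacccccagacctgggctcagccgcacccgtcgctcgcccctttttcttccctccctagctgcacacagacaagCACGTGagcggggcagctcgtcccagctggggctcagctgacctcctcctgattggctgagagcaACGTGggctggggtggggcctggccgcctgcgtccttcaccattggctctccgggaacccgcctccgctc

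In Egln3 the letters begin 229 bases before the start, in Egln1 68 bases and in Egln2 48 bases, each on the strand of the gene. In Hif1a they occur 3 times, and 2 of these overlap in the palindrome CACGTG between 135 and 130 bases before the start. Windows were found for 7 of the 8 genes, 8 windows in all, of which 4 held ACGTG. On either strand these letters were present in 16.6% of the 32851 windows of the same length in the RefSeq table, GCGTG in 28.2% and CACGTG, which contains ACGTG on each strand, in 6.02%. Egln1 and Egln2 also held GCGTG, as did Arnt, whereas the windows of Vhl and Hif1an held neither. A match gives the letters only, and whether they bear on the transcript levels was not tested. Of the 4 genes with ACGTG, Egln1 and Egln3 were higher, Hif1a was lower and Egln2 had no clear direction.

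Set within each library, the prolyl hydroxylase transcripts outnumbered the Hif1a and Epas1 transcripts more in the Usp28 KO-labelled cells. Per exon length, Egln1, Egln2 and Egln3 summed to 302 and 278 TPM in the Usp28 KO-labelled libraries, against 212 and 207 TPM in the control libraries. Hif1a and Epas1 summed to 86.1 and 78.1 TPM in the Usp28 KO-labelled libraries, against 109 and 107 TPM in the control libraries. Hif3a, which encodes a further alpha subunit, was left out of this sum. It had 16.0 and 23.5 TPM in the Usp28 KO-labelled libraries, against 14.3 and 17.9 TPM in the control libraries. A ratio that includes Hif3a was not computed. The ratio of the sums, on which the scaling between libraries has no bearing, was 3.51 and 3.55 in the Usp28 KO-labelled libraries, against 1.94 and 1.94 in the control libraries. The groups were separated by much more than the distance between replicates, at a ratio of the means of 1.82 (exact permutation test, two-sided p = 0.333, the smallest that 2 libraries against 2 allow). By the longest transcript in place of the union of exons, the ratio was 3.20 and 3.23 in the Usp28 KO-labelled libraries, against 1.87 and 1.77 in the control libraries. The ratio rests on the same counts as the single-gene tests and is not separate evidence. It was not corrected for the GC trend, which differed between libraries. Transcript GC content was 56.0%, 61.0% and 51.4% for Egln1, Egln2 and Egln3, against 41.0% and 52.5% for Hif1a and Epas1. The ratio of the sums was 1 of 13 ratios between members that were computed, and the groups did not overlap in 8 of them. These ratios reuse the same few genes, so the 8 are not separate results. Taken singly, 41.8% of all tested genes did not overlap either, and the share for ratios between other genes was not computed.

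The parts of that ratio behaved differently. Egln1 per Hif1a was 1.41 and 1.38 in the Usp28 KO-labelled libraries, against 0.684 and 0.678 in the control libraries. Egln3 per Hif1a was 2.89 and 2.68 in the Usp28 KO-labelled libraries, against 1.19 and 1.33 in the control libraries. Both separated the groups, whereas Egln2 per Hif1a, at 1.05 and 1.06 in the Usp28 KO-labelled libraries and 1.10 and 0.638 in the control libraries, did not. Egln3 held 54.0% and 52.4% of the prolyl hydroxylase transcripts in the Usp28 KO-labelled libraries, against 39.9% and 50.2% in the control libraries. Egln2 held 19.7% and 20.7% in the Usp28 KO-labelled libraries, against 37.1% and 24.1% in the control libraries. In the control group the replicates differed in these shares more than in the sum, with Egln2 high and Egln3 low in replicate 1.

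**Figure D3:**
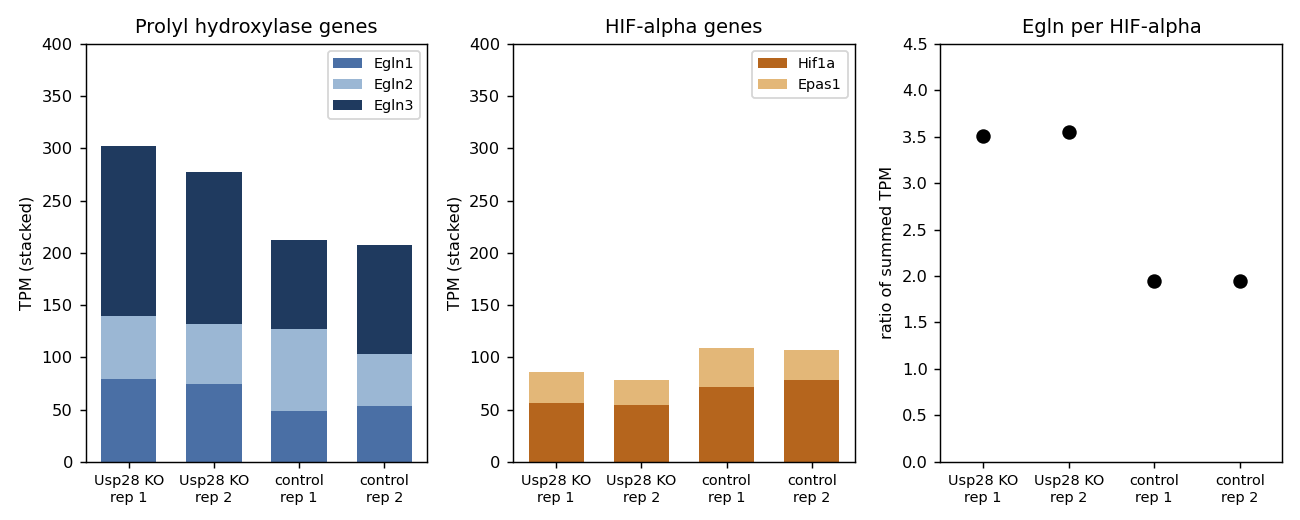
TPM (per union of exons) of the prolyl hydroxylase genes (left) and of the HIF alpha subunit genes Hif1a and Epas1 (middle), stacked by gene in each library, and the ratio of the stacked sums (right). The ratio is 3.51 and 3.55 in the Usp28 KO-labelled libraries, against 1.94 and 1.94 in the control libraries.

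Vhl (ENSMUSG00000033933.13, plus strand of chromosome 6, 113623959 to 113631633) had the lowest level of the 8 genes in the control libraries. It had 27.0 and 23.5 CPM in the Usp28 KO-labelled libraries, against 21.9 and 20.1 CPM in the control libraries. The groups did not overlap but lay close. The log2 fold change was 0.26 ± 0.20, with a 95% interval of -0.16 to 0.69 (edgeR, adjusted p = 0.674). The annotated pseudogene Vhl-ps1 had 0 counts in every library.

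Hif1an (ENSMUSG00000036450.4, plus strand of chromosome 19, 44562850 to 44576274) had 69.6 and 52.3 CPM in the Usp28 KO-labelled libraries, against 73.2 and 56.8 CPM in the control libraries. The groups overlapped, and replicate 1 was the higher library in both. The log2 fold change was -0.093 ± 0.19, with a 95% interval of -0.51 to 0.33 (edgeR, adjusted p = 0.911). Its sign turned without Usp28 KO-labelled replicate 2 (0.093) and without control replicate 1 (0.10), so the data give it no direction.

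Set side by side per exon length, Egln3 had the highest level of the 8 genes in both groups, at 154 ± 12.6 TPM in the Usp28 KO-labelled libraries and 94.3 ± 13.8 TPM in the control libraries. In the Usp28 KO-labelled libraries Arnt (82.3 ± 8.41 TPM), Egln1 (77.1 ± 3.46 TPM), Egln2 (58.5 ± 1.47 TPM) and Hif1a (55.4 ± 1.65 TPM) came next, ahead of Hif1an, Vhl and Epas1 between 26.7 and 31.7 TPM. In the control libraries Hif1a (74.8 ± 4.91 TPM) came second, followed by Arnt (72.5 ± 5.98 TPM), Egln2 (64.3 ± 20.2 TPM) and Egln1 (50.9 ± 3.05 TPM), ahead of Epas1, Hif1an and Vhl between 23.1 and 33.0 TPM. The libraries of neighbours overlapped for Arnt and Egln1 and among the lowest 3 genes in the Usp28 KO-labelled group. In the control group they overlapped for Hif1a and Arnt, Arnt and Egln2, Egln2 and Egln1, and Epas1 and Hif1an. The order depends on length: by the longest transcript Arnt averaged 109.8 TPM over the 4 libraries and Egln3 95.2 TPM, against 77.4 and 124 TPM by the union of exons.

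Genes that act with these 8 were described from lists, by their counts and medians beside a median log2 fold change of -0.0040 over all tested genes. The adaptor, scaffold and ring subunits with which VHL forms its ligase (Elob, Eloc, Cul2, Rbx1) and the cullin modifier gene Nedd8 lay between -0.063 and 0.18, and none of the 5 passed by edgeR or at an unadjusted p under 0.05. Nedd8 and Elob had log2 fold changes of 0.18 ± 0.17 and 0.10 ± 0.18. Of 12 other genes of the HIF family of bHLH-PAS factors, 8 were tested and none passed either threshold. Hif3a, which encodes a further alpha subunit, had 31.1 and 46.4 CPM in the Usp28 KO-labelled libraries, against 28.4 and 37.6 CPM in the control libraries, and those groups overlapped. Ahrr, the repressor of the aryl hydrocarbon receptor, and the clock factor gene Arntl had log2 fold changes of 0.53 ± 0.35 and -0.23 ± 0.21.

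Of 22 genes for HIF coactivators, chaperones and regulators, 0 passed by edgeR, and the median was -0.11. At an unadjusted p under 0.05, Cited4 and Siah2 were higher, 9.09% of the list in a background of 6.86% of all tested genes. Sirt1 and Cited2 were lower, 9.09% of the list in a background of 4.34%. With so few genes these shares do not set the list apart from the background. Siah2 encodes a ubiquitin ligase known to target prolyl hydroxylases of the EGLN family for degradation. It had 9.20 and 9.44 CPM in the Usp28 KO-labelled libraries, against 5.78 and 5.80 CPM in the control libraries (log2 fold change 0.69 ± 0.25; edgeR, adjusted p = 0.326). The deacetylase gene Sirt1 had 84.6 and 68.9 CPM in the Usp28 KO-labelled libraries, against 116 and 111 CPM in the control libraries (-0.56 ± 0.17; edgeR, adjusted p = 0.223). Cited4, a relative of Cited2, whose product competes with HIF for p300, was near the detection limit at 1.23 and 1.12 CPM in the Usp28 KO-labelled libraries, against 0.358 and 0.0631 CPM in the control libraries (2.37 ± 0.67; edgeR, adjusted p = 0.200).

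Like the EGLN enzymes, many other oxygenases use 2-oxoglutarate and oxygen. Of 40 such genes 38 were tested, with 18 above 0 and 20 below, a median of -0.032 and 0 passed by edgeR. The collagen prolyl hydroxylase gene P4ha2 had 26.5 and 27.0 CPM in the Usp28 KO-labelled libraries, against 9.98 and 15.3 CPM in the control libraries, which is 1.09 ± 0.23 on the log2 scale (edgeR, adjusted p = 0.114; DESeq2, adjusted p = 0.00996). P4ha1 and the histone demethylase gene Kdm4b had log2 fold changes of 0.53 ± 0.20 and 0.39 ± 0.16 (edgeR, adjusted p = 0.342 and 0.401). P4ha2 and P4ha1, but not Kdm4b, are counted in the list of HIF targets too, as are Plod2, Jmjd6 and Kdm3a. Plod2, Jmjd6 and Kdm3a had log2 fold changes of 0.29, 0.25 and -0.27 and did not reach an unadjusted p under 0.05.

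Of 42 other HIF target genes 40 were tested, and 38 of these lay above 0, at a median of 0.55. By edgeR 0 passed, while 20 were higher at an unadjusted p under 0.05, in the background of 6.86%, and 1 was lower, in that of 4.34%. DESeq2 called 7 of the 39 to which it gave an adjusted p, in a background of 1.08%, and all 7 were higher: Ddit4, Bhlhe41, Ndrg1, P4ha2, Vegfa, Slc16a3 and Pfkfb3. Ddit4, which encodes an inhibitor of mTORC1, had 244 and 194 CPM in the Usp28 KO-labelled libraries, against 75.1 and 101 CPM in the control libraries (log2 fold change 1.32 ± 0.19; edgeR, adjusted p = 0.0540). Bhlhe41 had a log2 fold change of 1.62 ± 0.31 and Ndrg1 of 1.01 ± 0.21 (edgeR, adjusted p = 0.0715 and 0.102). The list median depended on the library left out. Without Usp28 KO-labelled replicate 1 or 2 it was 0.57 or 0.43. Without control replicate 1 the median was 0.34, and without control replicate 2 it was 0.73. Egln1 and Egln3, at 0.53 and 0.64, lay near the median of this list.

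**Figure D4:**
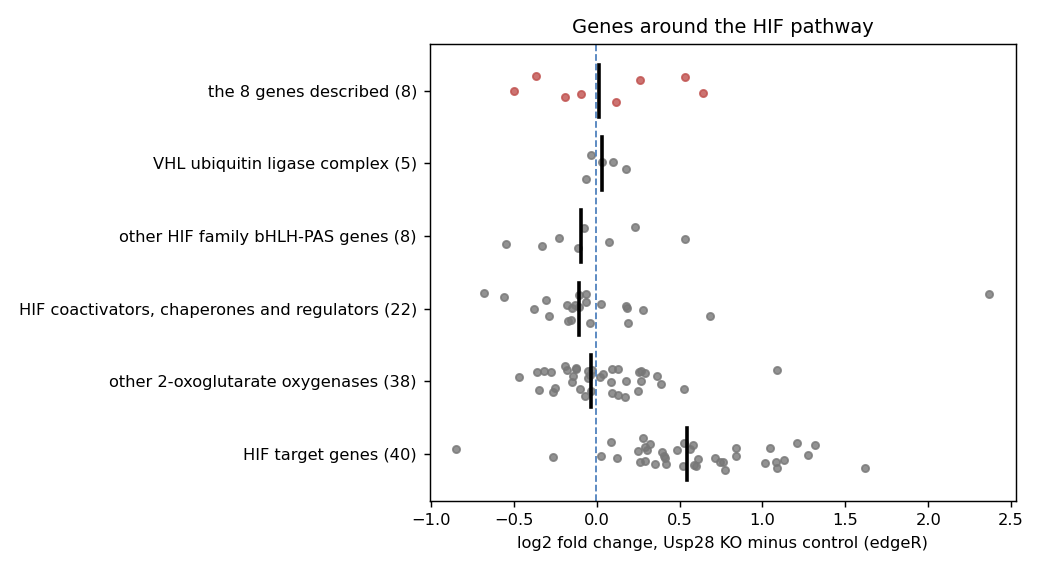
Log2 fold change (Usp28 KO minus control, edgeR) of the 8 genes (red) and of the tested genes of each list (grey), with the list median as a black bar, the number tested in brackets and the median of all tested genes as a dashed line. The HIF target median is 0.55, and the medians of the other lists lie between -0.11 and 0.034.

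Among 7564 genes that averaged at least 20 CPM, those whose log2 CPM over the 4 libraries, centred on each gene's mean, lay closest to Hif1a were Gen1, Chm and Zbtb6, at root mean square distances of 0.016, 0.019 and 0.029. Gen1 had 28.4 and 28.2 CPM in the Usp28 KO-labelled libraries, against 37.8 and 43.5 CPM in the control libraries, the same order of libraries as Hif1a. The closest to Egln3 were Itpr1, Aasdh and Ccng2, at distances of 0.031, 0.037 and 0.037. Itpr1 had 113 and 107 CPM in the Usp28 KO-labelled libraries, against 62.6 and 82.0 CPM in the control libraries. With 4 libraries many genes come close to any given profile, and likeness here is a description of levels.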

How the data were processed

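The authors deposited raw counts for each gene of polyA-selected RNA. The submitters' processing notes name HISAT2, featureCounts, DESeq2 and the mm10 build, with no versions. Strand, multi-mapped reads and annotation release: not given in the sources used here. Gene symbols came from GENCODE M21, in which 55141 of 55401 identifiers matched without their version, and 260 did not; the 8 members all matched. In R 4.3.3, edgeR 4.0.16 kept 15341 genes by filterByExpr (minimum count 10, minimum total 15), scaled libraries by TMM and compared Usp28 KO with control by a robust quasi-likelihood fit with Benjamini-Hochberg adjustment over all tested genes (threshold 0.05). Errors after ± are standard errors for log2 fold changes and SDs for levels. TPM values use the exon length in the table. Alternatives were DESeq2 1.42.0, limma 3.58.1 (voom), other scalings and filters, each library left out, a replicate block, and offsets for the GC trend (spline with 5 degrees of freedom; GC known for 99.9% of tested genes). The edgeR fit with TMM scaling and no block was checked on simulated data with known fold changes; the alternatives were not. Replicates of a group differed by more than sampling noise (chi-square per degree of freedom 28.2 for the Usp28 KO pair and 30.2 for the control pair). The members, lists and rules were chosen with earlier results of these data known, so no list is independent support. Besides the members, the genes named were the 3 with the smallest p in each list, the 3 closest to Hif1a and to Egln3 in profile, and Usp28. The ratios between members, Gm15283, Vhl-ps1, Cyp2t4, Cited2, the oxygenase genes in both lists and the DESeq2 calls were added to that rule, and 1 gene of the HIF target list is not reported here.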

Additional observations from a re-analysis of the deposited data

How the results depend on the processing

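Over 14 alternatives Hif1a, Epas1, Egln1, Egln3 and Vhl kept their direction: Hif1a ran from -0.60 to -0.32, Epas1 from -0.53 to -0.19, Egln1 from 0.43 to 0.63, Egln3 from 0.46 to 0.84 and Vhl from 0.16 to 0.35. Over the fits with a library left out, Hif1a ran from -0.60 to -0.40, Egln1 from 0.43 to 0.63, Egln3 from 0.46 to 0.84, Arnt from -0.0078 to 0.24, Egln2 from -0.46 to 0.12 and Hif1an from -0.31 to 0.10. Signs turned for Arnt (-0.0078) and Hif1an (0.093) without Usp28 KO replicate 2, and for Arnt (-0.0024), Egln2 (0.12) and Hif1an (0.10) without control replicate 1; the cause was not tested. Without the filter on low counts Egln3 passed by edgeR (0.65, adjusted p = 0.0297). In that fit 204 of 27042 tested genes were called higher and 118 lower. Over all genes, the calls (0 higher and 0 lower by edgeR with the settings reported) were 89 higher and 51 lower by DESeq2, 18 and 3 with upper-quartile scaling, 24 and 5 with library totals, and 204 and 118 without the filter. With a library left out, 49 to 146 genes were called higher and 31 to 200 lower; the lone library of a group is then assumed to vary like the others. Upper-quartile scaling and library totals moved the median of all genes to 0.053 and 0.057.

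Same-numbered libraries deviated from their group means together (correlation 0.517 over 10701 genes), but the labels do not say that a number marks a shared batch. With the number as a replicate block edgeR called 965 of 15341 genes higher and 716 lower, and Hif1a (-0.49), Egln1 (0.54) and Egln3 (0.65) passed. With the block and GC offsets together 1212 of 15341 genes were called higher and 1253 lower. In that fit Hif1a (-0.33), Epas1 (-0.39), Egln1 (0.44), Egln2 (-0.32) and Egln3 (0.65) passed. In the HIF target list 28 of 40 genes passed as higher with the block, with or without GC offsets. Over all tested genes, 965 of 15341 were higher with the block alone and 1212 with GC offsets too. In the list 1 gene passed as lower with the block alone and 2 with GC offsets too. Without the filter on low counts 11 of 42 target genes were higher, beside 204 of 27042 genes in all. With the settings reported 0 target genes passed. Over the fits with a library left out, the median of the regulator list ran from -0.098 to -0.049 and that of the oxygenase list from -0.068 to -0.0057. The median of all genes ran from -0.014 to 0.012 over the same fits. The block leaves 1 residual degree of freedom among libraries. The members had between 319 and 3891 counts in a library.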
